A study of Saccharomyces cerevisiae with 6 samples.

Results

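The genes of the large, 60S subunit of the cytosolic ribosome were followed in budding yeast, Saccharomyces cerevisiae, in WT cells, in a bud27 deletion and in WT cells given rapamycin. Members were chosen by name: every RPL gene with a number and an optional A or B, together with RPP0, RPP1A, RPP1B, RPP2A and RPP2B, but not RPP1, a gene of RNase P. The rule gave 81 genes among the 5475 gene rows of the table, and each of the 81 had a row. They encode 46 proteins, 11 from a single gene and 35 from an A and a B copy, and 53 of the genes have an intron in the coding region.

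The 60S subunit carries the centre that joins amino acids, the tunnel through which the new chain leaves and the flexible P stalk that recruits and activates the translation GTPases. Yeast kept a pair of copies of most of these genes after an ancient genome duplication, and the proteins of a pair are often identical or nearly so. Transcription of ribosomal protein genes depends on Rap1, Fhl1 and Ifh1 in much of the family, and TOR complex 1, the kinase complex that rapamycin inhibits, is known to promote it. Bud27 is a prefoldin-like protein known for its part in assembling the nuclear RNA polymerases.

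All 6 samples were given as strain BY4741, grown in YPD, a rich glucose medium, at 30 °C to an OD600 of about 0.8. There were 2 WT samples, 2 samples of the bud27 deletion and 2 of WT kept overnight in YPD with rapamycin at 50 ng/ml, a drug that the other groups did not receive. The labels do not say how the deletion was built or whether its samples come from more than 1 clone, and nothing says that samples of a group were separate cultures. The spread behind the p-values may therefore be technical.

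Libraries were made with the QuantSeq kit, which reads a short stretch at the 3′ end of polyadenylated RNA, so that a value follows the number of transcripts and not their length. The deposited CPM values rested on 18153459 to 28774941 reads in WT and after rapamycin, but on only 3212848 and 5088194 in the deletion. The label check gave 268 and 246 BUD27 reads for WT against 6 and 9 for the deletion. The deletion samples also had few reads of TRP1, 5 and 8 against 738 and 626 in WT. They had fewer of FRS2, the neighbour of BUD27, 124 and 118 against 3405 and 1500. The deletion may thus differ from WT in more than BUD27, though the same strain name is given for both. What differs from WT need not follow from losing Bud27 only. Levels below are CPM rescaled by TMM factors, which set the bulk of genes equal between samples, and a log2 fold change is a difference in log2(scaled CPM + 1), where the added 1 shrinks the change of rare transcripts. A gene was called higher or lower at an adjusted p below 0.05 in limma over 5279 gene rows, adjusted after Benjamini and Hochberg. Of the 81 members 80 passed the filter on low values. RPL40B, with 0 to 6 reads in a sample, did not, and RPL7A and RPL14A passed with only 7 to 48 and 1 to 97 reads a sample. How reads that match several places were counted is not given in the sources used here, so a row near 0 does not show that the gene was silent. RPL7B, RPL21A and RPL29 share a row with other features.

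The copies of a pair can be told apart only where their 3′ ends differ, and the coding ends of RPL9, RPL2 and RPL31, which with RPL41 had the largest changes in copy ratio in the deletion, are shown for that reason. The sequences are the last 60 coding bases, stop codon included, from RefSeq's R64 genome, 5′ to 3′, with the bases that differ between the copies in capitals. RPL9 encodes uL6, RPL2 encodes uL2 near the catalytic centre, and RPL31 encodes eL31 at the tunnel exit.
RPL9A: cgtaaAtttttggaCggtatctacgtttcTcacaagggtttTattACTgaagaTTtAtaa
RPL9B: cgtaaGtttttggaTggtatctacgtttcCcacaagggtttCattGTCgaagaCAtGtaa
RPL2A: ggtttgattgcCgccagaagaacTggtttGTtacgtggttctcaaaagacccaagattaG
RPL2B: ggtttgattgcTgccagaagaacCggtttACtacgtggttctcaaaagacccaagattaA
RPL31A: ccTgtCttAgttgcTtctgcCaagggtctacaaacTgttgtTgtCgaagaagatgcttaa
RPL31B: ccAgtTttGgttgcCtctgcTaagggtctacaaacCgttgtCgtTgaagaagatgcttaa

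RPL41 is a peptide gene so short that its whole coding sequence of 78 bases can be shown, and its copies differ at only 1 of them.
RPL41A: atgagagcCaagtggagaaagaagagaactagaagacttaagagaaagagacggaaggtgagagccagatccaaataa
RPL41B: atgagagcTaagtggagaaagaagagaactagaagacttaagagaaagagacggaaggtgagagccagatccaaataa
In a 3′ window of the last 100 coding bases and the 200 bases after the stop codon, no stretch of 50 bases was shared between the copies of RPL9, RPL2 or RPL31, whereas 10.8% of the stretches of RPL41, 16.3% of those of RPL35 and 21.1% of those of RPL14 occurred in both copies. Of the 80 members tested, 59 shared no such stretch with their partner or had no partner.

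Almost the whole family was lower after rapamycin, whereas in the deletion the members ranged from strong falls to modest rises. After rapamycin 75 of the 80 members tested were lower than WT and 1 was higher, where 21.5% of all gene rows were called lower and 24.4% higher. In the deletion 43 members were lower and 7 higher, against 25.5% and 21.7% of all rows. The median log2 fold change of the members was -1.50 after rapamycin, with an SD among them of 0.45, and -0.60 in the deletion, with an SD of 0.74. The same median over all rows was 0.05 and -0.02. The rows of the small subunit, 57 in number, had medians of -1.59 and -0.52, with 54 and 29 called lower, which is close to the values of the large subunit; the difference between the subunits was not tested.

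Of all reads in gene rows the members took 21.9% and 21.5% in WT, 18.2% and 20.0% for the deletion samples and 11.7% and 11.8% for the rapamycin samples. The samples of the 3 groups did not overlap in this share. On the deposited CPM, without TMM factors, the median of all rows rises to 0.38 in the deletion and 0.60 after rapamycin. The members' medians then become -0.16 and -0.89, with 22 lower and 14 higher in the deletion, where 13.3% of all rows were lower and 42.5% higher, and 69 lower and 2 higher after rapamycin, where 8.18% were lower and 54.7% higher. Absolute levels are not fixed by a spike-in, and neither median changed sign. With 1 WT library left out fewer members, and fewer of all rows, were called in the deletion, lower as well as higher. The members' median there was then -0.54 (without replicate 1) and -0.67 (without replicate 2). Leaving out either rapamycin library, which changes the shared spread, also left fewer members and fewer of all rows called, with a median of -0.56. The cause of the fewer calls was not tested.

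**Figure D1:**
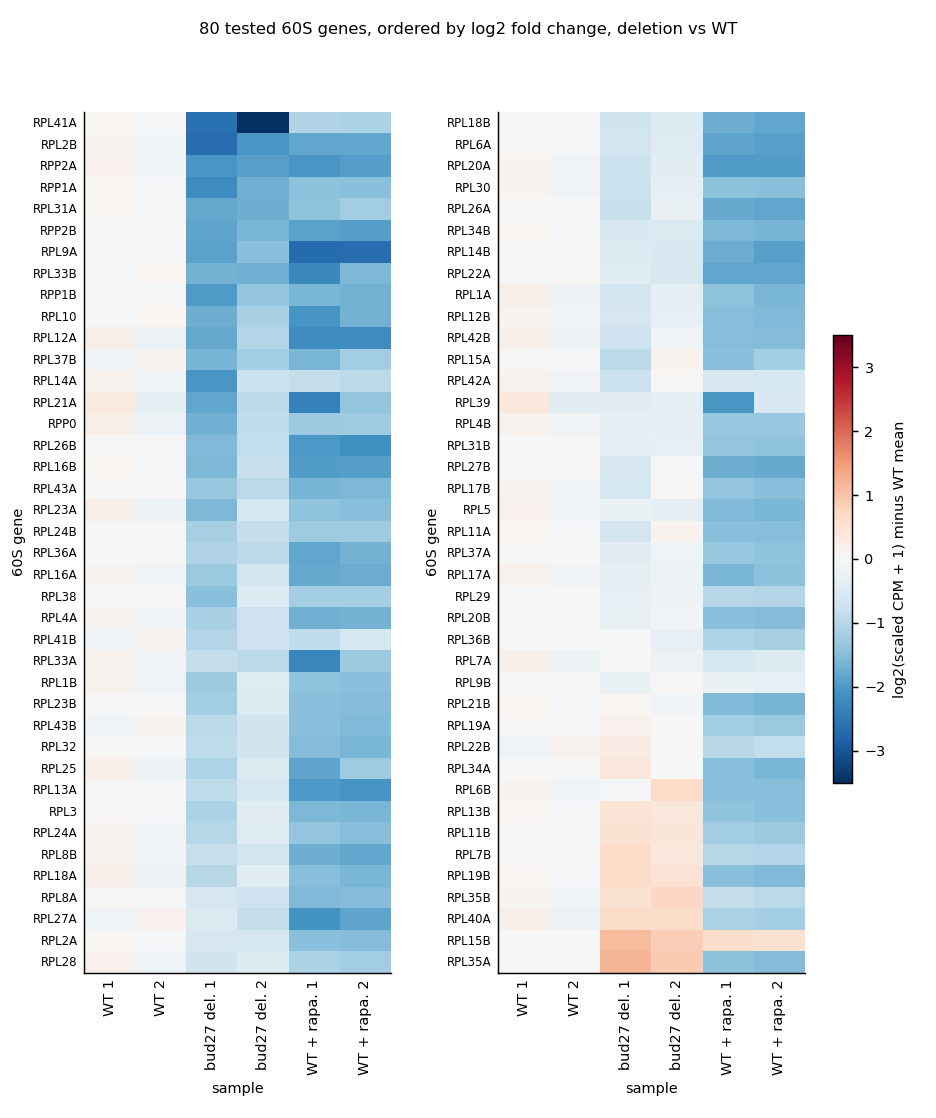
Level of each of the 80 tested members in each of the 6 samples, as log2(scaled CPM + 1) minus the mean of the 2 WT samples (colour, blue lower and red higher), with genes ordered by their log2 fold change in the deletion. Rapamycin columns are blue for all members but RPL15B, while the deletion columns run from -3.14 for RPL41A to 1.05 for RPL35A.

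Most of the P stalk fell in both conditions. RPP0 is the base of the stalk on which the acidic proteins RPP1A, RPP1B, RPP2A and RPP2B sit as pairs, and RPL12 binds beside it. In the deletion 6 of the 7 stalk genes were called lower, against 25.5% of all rows, with a median log2 fold change of -1.66. After rapamycin all 7 were lower, against 21.5% of all rows, with a median of -1.62. None of the 5 RPP genes was called different between the deletion and rapamycin.

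RPP1A, on chromosome IV at 309802 to 310122 on the minus strand of R64, had 9356 and 8400 scaled CPM in WT, 1925 and 2753 in deletion samples and 3273 and 3192 with rapamycin. Its log2 level dropped by 1.95 in the deletion (SE 0.24, adjusted p = 0.0006) and by 1.46 after rapamycin (SE 0.24, adjusted p = 0.0019). Both deletion samples lay below both rapamycin samples, but the difference was not called (log2 difference -0.49, adjusted p = 0.12); on the deposited CPM it was (log2 difference -0.66, adjusted p = 0.015).

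RPP2A, of the acidic protein type that pairs with RPP1A and RPP1B, had 373 and 305 scaled CPM in WT, 81.3 and 89.8 in deletion samples and 80.9 and 88.0 with rapamycin. It fell by 1.97 in the deletion (SE 0.15, adjusted p = 5.1e-05) and by 1.99 after rapamycin (SE 0.15, adjusted p = 4.4e-05). The deletion and rapamycin samples overlapped, and both groups were apart from WT.

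RPP2B had 7995 and 7813 scaled CPM in WT, 2182 and 2623 in deletion samples and 2168 and 2075 with rapamycin, log2 fold changes of -1.72 and -1.90 (SE 0.20, adjusted p = 0.00049 and 0.00024). RPP1B had 5232 and 4965 in WT, 1300 and 2009 in deletion samples and 1693 and 1617 with rapamycin, log2 fold changes of -1.66 and -1.62 (SE 0.24, adjusted p = 0.0012 and 0.001). For both genes WT stood apart from the other 4 samples; NKP1 lies on the other strand within the 3′ window of RPP2B, and its part in the count was not tested. RPP0 had 8291 and 6190 in WT, 2236 and 3882 in deletion samples and 2983 and 3004 with rapamycin, changes of -1.28 and -1.26 (SE 0.30, adjusted p = 0.01 each). The RPP0 calls were lost without WT replicate 1, at adjusted p = 0.099 and 0.1.

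The copies of RPL12 parted, with a log2 ratio of A to B lower by 0.97 in the deletion (adjusted p = 0.0039 over the gene pairs). RPL12A had 5071 and 3762 scaled CPM in WT, 1252 and 2161 in deletion samples and 960.5 and 945 with rapamycin, log2 fold changes of -1.41 (SE 0.28, adjusted p = 0.0049) and -2.19 (SE 0.28, adjusted p = 0.00053). Without WT replicate 1 its deletion call was lost (adjusted p = 0.059). RPL12B had 2534 and 2206 in WT and 1564 and 1937 in the deletion, a change of -0.44 that was not called (SE 0.18, adjusted p = 0.081).

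**Figure D2:**
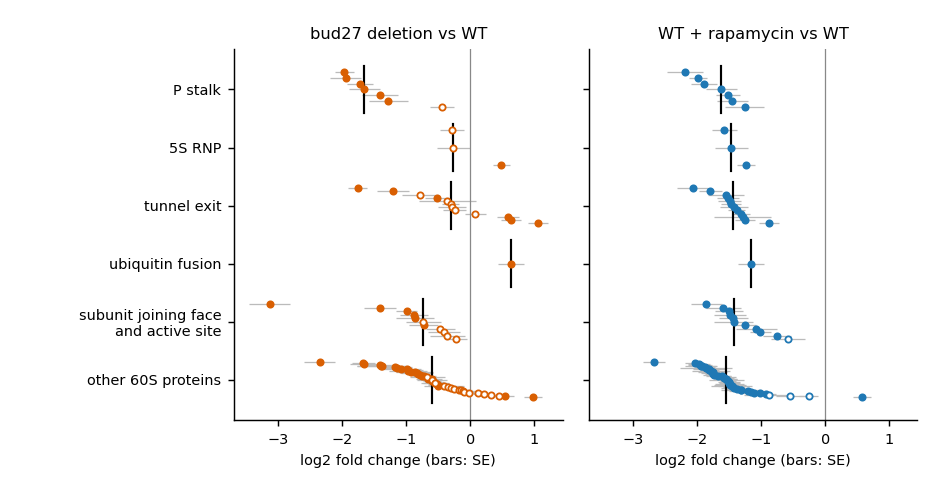
Log2 fold change of each tested member against WT (x axis, bars are the SE) by role (y axis), for the deletion on the left and rapamycin on the right. Filled points were called, open points were not, and the black line is the median of a role, which is -1.66 for the P stalk, -0.26 for the 5S RNP and -0.30 for the tunnel exit in the deletion (both above 0 on the deposited CPM), and -1.62, -1.47 and -1.45 after rapamycin.

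The genes of the 5S RNP and of the tunnel exit gave a mixed picture in the deletion, with medians of -0.26 and -0.30 that become 0.17 and 0.14 on the deposited CPM. RPL5 and RPL11 form, with 5S rRNA, the particle that enters the pre-60S as a unit. None of its 3 genes was lower in the deletion and RPL11B was higher, where 25.5% and 21.7% of all rows were. All 3 were lower after rapamycin and higher in the deletion than after rapamycin, against 21.5% and 25.6% of all rows. RPL11B had 689 and 643 scaled CPM in WT, 971 and 896 in deletion samples and 284 and 277 with rapamycin, a rise of 0.49 on the log2 scale (SE 0.14, adjusted p = 0.022) and a fall of 1.24 (SE 0.14, adjusted p = 0.00028). The 3 groups did not overlap, but the rise was not called without either WT library (adjusted p = 0.073 and 0.12) or without either rapamycin library (adjusted p = 0.051 each). RPL5 had 3642 and 2925 in WT, 2768 and 2589 in deletion samples and 1111 and 1079 with rapamycin, a change of -0.29 in the deletion that was not called (SE 0.19, adjusted p = 0.25) and is 0.15 on the deposited CPM.

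Around the tunnel exit, where RPL17, RPL19, RPL25, RPL26, RPL31, RPL35 and RPL39 lie and where targeting factors dock, 12 of 12 genes were lower after rapamycin. In the deletion 3 were lower, 3 higher and 6 not called. Of all rows 25.5% were lower and 21.7% higher there, so the shares among the 12 are near those of all rows. RPL31A, RPL26A and RPL26B were lower, and RPL35A, RPL35B and RPL19B were higher.

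RPL26B, of a protein beside the exit, had 4418 and 4565 scaled CPM in WT, 1529 and 2455 in deletion samples and 1124 and 1017 with rapamycin. It fell by 1.21 in the deletion (SE 0.25, adjusted p = 0.0053), a call lost without WT replicate 2 (adjusted p = 0.054), and by 2.07 after rapamycin (SE 0.25, adjusted p = 0.00037). The groups did not overlap. RPL26A fell by 0.52 in the deletion (SE 0.18, adjusted p = 0.049), with -0.08 on the deposited CPM (adjusted p = 0.65), and the call was also lost in edgeR, without the filter, without joined rows, with the replicate block and without any of the WT and rapamycin libraries or deletion replicate 1. RPL25, the docking site of targeting factors, had 3290 and 2609 in WT, 1381 and 2097 in deletion samples and 810 and 1226 with rapamycin. Its deletion change of -0.78 was not called by limma (SE 0.28, adjusted p = 0.051) but was called by edgeR and DESeq2 on the reads (adjusted p = 0.048 and 0.016), and it fell by 1.56 after rapamycin (SE 0.28, adjusted p = 0.0028).

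RPL35A, on chromosome IV at 117664 to 118517 on the plus strand, was the member with the largest rise in the deletion. It had 760 and 766 scaled CPM in WT, 1738 and 1442 in deletion samples and 281 and 268 with rapamycin. It rose by 1.05 in the deletion (SE 0.15, adjusted p = 0.0013) and fell by 1.47 after rapamycin (SE 0.15, adjusted p = 0.00021). RPL35B, its copy on the same chromosome, had 708 and 621 in WT, 956 and 1106 in deletion samples and 373 and 347 with rapamycin, a rise of 0.63 (SE 0.16, adjusted p = 0.012) and a fall of 0.88 (SE 0.16, adjusted p = 0.0024). The groups did not overlap for either copy. The rise of RPL35B was not called without WT replicate 2 (adjusted p = 0.094), and its fall is -0.28 on the deposited CPM (adjusted p = 0.082). UFD2 lies on the other strand within the 3′ window of RPL35A, and its part in the count was not tested.

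RPL19B, on chromosome II at 168423 to 169376 on the plus strand, had 2053 and 1855 scaled CPM in WT, 3108 and 2756 in deletion samples and 712 and 672 with rapamycin. It rose by 0.58 in the deletion (SE 0.17, adjusted p = 0.025) and fell by 1.50 after rapamycin (SE 0.17, adjusted p = 0.00032), with no overlap between groups. Without WT replicate 1 or 2 the rise was not called (adjusted p = 0.081 and 0.15), nor without either rapamycin library (adjusted p = 0.059 and 0.058). RPL31A had 1077 and 972 in WT, 294 and 310 in deletion samples and 382 and 442 with rapamycin, a fall of 1.76 (SE 0.15, adjusted p = 9.5e-05) and of 1.31 (SE 0.15, adjusted p = 0.00028).

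RPL40A encodes a fusion of ubiquitin with eL40, cleaved to give both, and it was higher in the deletion as well. It had 2585 and 1923 scaled CPM in WT, 3495 and 3449 in deletion samples and 1026 and 968.5 with rapamycin, a rise of 0.64 (SE 0.20, adjusted p = 0.032) and a fall of 1.16 (SE 0.20, adjusted p = 0.0023). The groups did not overlap, and the rise was not called without WT replicate 2 (adjusted p = 0.22) or without either rapamycin library (adjusted p = 0.059 and 0.058). RPL7B, in a row shared with the intronic snR59, had 237 and 240 in WT, 380 and 316 in deletion samples and 120 and 116 with rapamycin, a rise of 0.54 (SE 0.14, adjusted p = 0.015) that was not called without WT replicate 1 or 2 (adjusted p = 0.078 and 0.075). The last of the 7 higher members was RPL15B, described with its pair. Of these 7, 5 were among the 21 tested members that share stretches of their 3′ window with another copy. Of the 21, 8 were lower in the deletion. Of the 59 tested members without shared stretches 2 were higher and 35 lower, where 21.7% of all rows were higher and 25.5% lower. The part of shared sequence in these values was not tested.

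**Figure D3:**
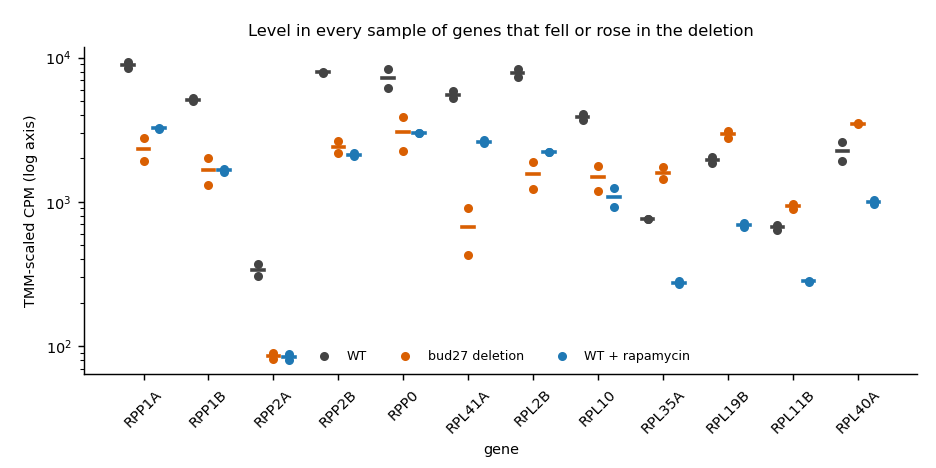
TMM-scaled CPM (log axis) of 12 members in each of the 6 samples, with a short line at the mean of each group. The P stalk genes, RPL41A, RPL2B and RPL10 lie below WT in both other groups, while RPL35A, RPL19B, RPL11B and RPL40A lie above WT in the deletion and below it after rapamycin.

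At the face that joins the 40S subunit and around the active site, 6 of 11 genes tested were lower in the deletion and none was higher. After rapamycin 10 were lower. The shares of all rows were 25.5% lower and 21.7% higher in the deletion and 21.5% lower after rapamycin. RPL10, a single-copy gene whose protein completes the catalytic centre late in maturation, had 3678 and 4085 scaled CPM in WT, 1185 and 1776 in deletion samples and 924 and 1241 with rapamycin. It fell by 1.42 (SE 0.25, adjusted p = 0.0028) and 1.85 (SE 0.25, adjusted p = 0.00066), and the deletion and rapamycin samples overlapped. RPL3, which reaches the peptidyl transferase centre, had 7658 and 7191 in WT, 3475 and 5717 in deletion samples and 2491 and 2429 with rapamycin. Its deletion change of -0.74 was not called by limma (SE 0.27, adjusted p = 0.057) but was called by edgeR and DESeq2 on the reads (adjusted p = 0.049 and 0.012).

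RPL41A had the largest change of any member in the deletion. On chromosome IV at 130407 to 130484 on the minus strand, it had 5818 and 5232 scaled CPM in WT, 910 and 430 in deletion samples and 2677 and 2561 with rapamycin. It fell by 3.14 in the deletion (SE 0.32, adjusted p = 0.00026), and its fall of 1.07 after rapamycin (SE 0.32, adjusted p = 0.027) was not called on the deposited CPM (-0.47, adjusted p = 0.24) or without a WT or rapamycin library (adjusted p = 0.061 to 0.16). The deletion samples lay below the rapamycin samples, a log2 difference of -2.06 (SE 0.32, adjusted p = 0.0011). RPL2B, on chromosome IX at 316768 to 317932 on the plus strand, came next, with 8276 and 7286 in WT, 1226 and 1876 in deletion samples and 2208 and 2199 with rapamycin. It fell by 2.36 (SE 0.25, adjusted p = 0.00028) and by 1.82 (SE 0.25, adjusted p = 0.00069). Its deletion samples lay below both rapamycin samples, a difference not called on the TMM scale (-0.54, adjusted p = 0.096) but called on the deposited CPM (-0.71, adjusted p = 0.013).

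All 11 single-copy genes were lower after rapamycin, against 21.5% of all rows, with log2 fold changes from -1.85 for RPL10 to -1.01 for RPL29. In the deletion 4 were lower (36.4%, against 25.5% of all rows), RPL10, RPP0, RPL32 and RPL38, and 7 were not called. RPL39, a small protein of the tunnel wall, had the widest gap between the samples of a group in WT and after rapamycin, with 870 and 514 scaled CPM in WT and 161 and 464 with rapamycin, a change of -1.29 (SE 0.45, adjusted p = 0.046) that edgeR and DESeq2 on the reads did not call (adjusted p = 0.051 and 0.12). Without rapamycin replicate 1 the change was -0.51 (adjusted p = 0.24) and on the deposited CPM -0.68 (adjusted p = 0.19), and the call was also lost without the filter and without either WT or either deletion library. RPL38 had 2276 and 2428 in WT, 850 and 1690 in deletion samples and 1024 and 1021 with rapamycin, changes of -0.97 (SE 0.30, adjusted p = 0.028) and -1.20 (SE 0.30, adjusted p = 0.012), neither of them called on the deposited CPM (adjusted p = 0.095 and 0.063) or without either WT library (adjusted p = 0.076 to 0.15). RPL32 had 3186 and 2986 in WT, 1671 and 1913 in deletion samples and 1072 and 1026 with rapamycin. Its groups did not overlap, but its deletion fall of 0.79 (SE 0.17, adjusted p = 0.0079) is -0.35 on the deposited CPM (adjusted p = 0.057) and was not called without WT replicate 1 (adjusted p = 0.063).

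Of the single-copy genes not called in the deletion, RPL3 and RPL25 are given above. RPL28 had 7770 and 6376 scaled CPM in WT, 4310 and 5008 in deletion samples and 3266 and 3030 with rapamycin. Its deletion change of -0.60 (SE 0.23, adjusted p = 0.062) was called by edgeR and DESeq2 on the reads (adjusted p = 0.038 and 0.0018), and its fall of 1.16 after rapamycin (SE 0.23, adjusted p = 0.0042) was lost without WT replicate 1 (adjusted p = 0.056). RPL30, whose protein is known to repress the splicing of its own transcript in yeast, had 5746 and 4987 in WT, 3159 and 4200 in deletion samples and 1964 and 1931 with rapamycin. Its deletion change of -0.56 (SE 0.22, adjusted p = 0.074) was called by DESeq2 (adjusted p = 0.012) but not by edgeR. For both genes the deletion samples lay between those of WT and rapamycin. RPL29, in a joined row, had 2221 and 2342 in WT, 1882 and 2023 in deletion samples and 1144 and 1119 with rapamycin, and its deletion change of -0.22 (SE 0.17, adjusted p = 0.3) is 0.21 on the deposited CPM.

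Among paired genes, RPL27A, which encodes eL27, was one of the 6 members with the largest fall after rapamycin. It had 803 and 978 scaled CPM in WT, 623 and 499.8 in deletion samples and 209 and 244 with rapamycin, a fall of 1.97 after rapamycin (SE 0.18, adjusted p = 0.00011). Its fall of 0.67 in the deletion (SE 0.18, adjusted p = 0.017) was not called on the deposited CPM (-0.23, adjusted p = 0.33) or without WT replicate 2 (adjusted p = 0.13). The groups did not overlap on the TMM scale.

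The deletion and rapamycin groups were also compared with each other, with a spread that the WT samples share. In the deletion 55 members were higher than after rapamycin and 2 lower, where 25.6% of all rows were higher and 29.4% lower, and the median log2 difference was 0.90. That median was 0.90 without either WT library and 0.91 without rapamycin replicate 1, with fewer members and fewer of all rows called higher. The largest differences were those of RPL35A at 2.52 (SE 0.15, adjusted p = 1.2e-05), RPL19B at 2.08 (SE 0.17, adjusted p = 4.8e-05), RPL13B at 1.88 (SE 0.16, adjusted p = 6.4e-05) and RPL6B at 1.81 (SE 0.23, adjusted p = 0.00039). RPL13B had 1963 and 1819 scaled CPM in WT, 2642 and 2492 in deletion samples and 716 and 681 with rapamycin. RPL6B had 928 and 804 in WT, 845 and 1368 in deletion samples and 309 and 305 with rapamycin. Neither was called in the deletion against WT (0.44 and 0.32, adjusted p = 0.057 and 0.28), though both were called higher on the deposited CPM (0.88 and 0.75, adjusted p = 0.0015 and 0.0081). RPL41A was lower, and so was RPL31A by 0.44 (SE 0.15, adjusted p = 0.034), a call lost with the replicate block (adjusted p = 0.056) and without any of 5 of the 6 libraries (adjusted p = 0.054 to 0.3). Without the other, deletion replicate 2, more members were called lower, as were more of all rows.

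Read together with WT, which both changes share, 42 of the 80 members were lower in each condition, as were 528 of the 5279 rows tested. Of these, 23 were higher in the deletion than after rapamycin, 2 were lower and 17 were not called, against 21.4%, 19.3% and 59.3% of the rows lower in both, and the 17 include the 5 RPP genes, RPL2B and RPL10. A further 6 were higher in the deletion and lower after rapamycin, namely RPL7B, RPL11B, RPL19B, RPL35A, RPL35B and RPL40A, where 1.97% of all rows did so.

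The copies of a pair often changed unequally in the deletion. The ratio of A to B was tested with limma over all 53 A/B-named gene pairs of the table whose copies each had their own row and passed the filter, 32 of them of the 60S subunit. In the deletion 17 of the 32 ratios changed, 12 towards B and 5 towards A, where 52.8% of all 53 pairs changed, 16 towards B and 12 towards A. After rapamycin 7 changed, 6 towards B and 1 towards A, against 26.4% of all pairs, 8 and 6, and between the deletion and rapamycin 15 changed, against 47.2%. These shares of changed pairs are near those of all pairs, but the 53 include the 32 themselves. All of the other 21 but COX5 are pairs of small-subunit genes. The shares are therefore no measure of duplicated genes outside the ribosome. In the other 21 pairs 4 ratios went towards B and 7 towards A in the deletion and 2 and 5 after rapamycin; the difference in direction was not tested. Leaving out a library moved the 7 ratios changed after rapamycin to 3 on leaving out any 1 of the WT and rapamycin libraries and to 15 without either deletion library. The 15 between the deletion and rapamycin became 9 without rapamycin replicate 1.

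RPL9 parted most after rapamycin. The A copy made up 78.6% and 77.2% of the pair's level in WT, 53.2% and 55.3% in deletion samples and 39.0% and 40.3% with rapamycin, so the 3 groups were well apart. The log2 ratio of A to B fell by 1.57 in the deletion (SE 0.16, adjusted p = 0.00037) and by 2.42 after rapamycin (SE 0.16, adjusted p = 1.4e-05). RPL9A went from 2188 and 2049 scaled CPM in WT to 576 and 763 in deletion samples and 326 and 333 with rapamycin, whereas RPL9B had 598 and 604, 507 and 618, and 511 and 493. RPL9B was not called in either comparison with WT (log2 fold changes of -0.10 and -0.26, SE 0.15, adjusted p = 0.6 and 0.2), and on the deposited CPM it was called higher in both (0.34 and 0.35, adjusted p = 0.045 and 0.036).

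RPL41 parted most in the deletion. The A copy was 59.7% and 53.6% of the pair in WT, 30.5% and 14.4% in deletion samples and 54.2% and 48.0% with rapamycin, a log2 ratio change of -2.26 in the deletion (SE 0.39, adjusted p = 0.0024) and -0.32 after rapamycin (SE 0.39, adjusted p = 0.55). RPL41B had 3922 and 4539 scaled CPM in WT, 2074 and 2551 in deletion samples and 2261 and 2777 with rapamycin. The coding sequences shown above are near identical, and 10.8% of the stretches of the 3′ window occur in both copies. The split of reads between these copies is therefore uncertain, to a degree that was not tested. Their summed level fell by 1.68 in the deletion (SE 0.20, adjusted p = 0.00049).

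RPL2 went towards A. RPL2A was 23.5% and 24.1% of the pair in WT, 56.9% and 45.7% in deletion samples and 28.3% and 27.6% with rapamycin, a log2 ratio change of 1.75 in the deletion (SE 0.21, adjusted p = 0.00043) and 0.32 after rapamycin (SE 0.21, adjusted p = 0.34). Deletion samples were above all others. RPL2A itself had 2548 and 2307 scaled CPM in WT, 1618 and 1576 in deletion samples and 872 and 840 with rapamycin. RPL31 went towards B, with RPL31A at 59.5% and 57.3% in WT, 33.9% and 34.0% in deletion samples and 57.4% and 61.7% with rapamycin, and a ratio change of -1.45 in the deletion (SE 0.18, adjusted p = 0.00043). DUS4 lies on the other strand within the 3′ window of RPL31B, and its part in the count was not tested.

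RPL15 had a scarce B copy that was higher in both conditions. RPL15B had 23.4 and 23.1 scaled CPM in WT, 50.8 and 43.4 in deletion samples and 35.9 and 34.2 with rapamycin, a rise of 0.98 (SE 0.14, adjusted p = 0.0011) and of 0.57 (SE 0.14, adjusted p = 0.011). It was the 1 member called higher after rapamycin, a call lost on leaving out any 1 of the WT and rapamycin libraries (adjusted p = 0.057 to 0.092). RPL15A, which made up 98.7% of the pair in both WT samples, had 1808 and 1714 in WT, 914 and 1911 in deletion samples and 644 and 777 with rapamycin. The log2 ratio of A to B fell by 1.40 in the deletion (SE 0.39, adjusted p = 0.017) and by 1.88 after rapamycin (SE 0.39, adjusted p = 0.0081).

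RPL13 and RPL37 moved in opposite directions in the deletion. RPL13A went from 32.6% of its pair in both WT samples to 15.7% and 19.2%, a log2 ratio change of -1.20 (SE 0.17, adjusted p = 0.00072). Levels of RPL13A were 947 and 880.1 scaled CPM in WT, 493 and 593 in deletion samples and 226 and 218 with rapamycin, falls of 0.75 and 2.04 (SE 0.15, adjusted p = 0.0048 and 4.4e-05). RPL37A went from 56.3% and 52.6% to 73.7% and 71.3%, a change of 1.14 (SE 0.19, adjusted p = 0.0022). The 3′ window of RPL13B holds part of YMR141C on the same strand, and that of RPL37B part of LCD1 on the other; their part in the counts was not tested. RPL42, whose copies differ at only 1 of their last 60 coding bases, was the pair that changed towards A after rapamycin, from 40.8% and 42.3% in WT to 57.9% and 56.7%, with 40.9% and 44.1% in the deletion, a change of 0.91 (SE 0.14, adjusted p = 0.0019). RPL42A itself was not called after rapamycin (log2 fold change -0.58, SE 0.27, adjusted p = 0.12), whereas RPL42B fell by 1.49 (SE 0.25, adjusted p = 0.0018).

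The other ratios called in the deletion moved less. Towards B went RPL6, with the A copy at 60.2% and 62.0% of the pair in WT and 50.2% and 41.9% in the deletion (log2 ratio change -0.88, adjusted p = 0.0069), and RPL36, from 13.3% and 12.8% to 6.79% and 8.80% (-0.83, adjusted p = 0.011). RPL4 went from 66.5% and 67.4% to 53.8% and 61.2% (-0.58, adjusted p = 0.024), and RPL22 from 94.5% and 94.0% to 91.0% and 91.7% (-0.62, adjusted p = 0.033). RPL11 and RPL19 also went towards B, at -0.75 and -0.51 (adjusted p = 0.04 and 0.013). Towards A went RPL33, from 72.1% and 66.4% to 80.05% and 79.3% (0.79, adjusted p = 0.013), RPL34, from 35.9% and 38.2% to 52.8% and 45.9% (0.73, adjusted p = 0.013), and RPL26, from 17.7% and 16.9% to 26.4% and 24.1% (0.69, adjusted p = 0.0059). In each of the pairs given here by its shares the deletion samples lay on 1 side of both WT samples. Without either WT library the calls of RPL4, RPL11, RPL19 and RPL22 were lost, with changes then from -0.49 to -0.78. Those of RPL19 and RPL22 were also lost without either rapamycin library. The call of RPL33 was lost without WT replicate 2 (0.60) and that of RPL34 without WT replicate 1 (0.66). After rapamycin RPL12, RPL13, RPL22 and RPL36 were also called, all towards B, at -0.68, -0.60, -0.89 and -0.63 (adjusted p = 0.031, 0.031, 0.013 and 0.0496). Each of these calls was lost on leaving out any 1 of the WT and rapamycin libraries, with changes then from -0.50 to -0.96. Those of RPL13 and RPL36 were also lost with the replicate block. That of RPL36 was lost with a pseudocount of 5 and without the filter too. Between the deletion and rapamycin RPL14, RPL35, RPL24 and RPP1 were called without a call against WT, with log2 ratio differences of -1.83, 1.01, 0.46 and -0.46 (adjusted p = 0.013, 0.0039, 0.036 and 0.027). The calls of RPL24 and RPP1 were lost on leaving out any 1 of the WT and rapamycin libraries. Their differences were then 0.39 to 0.52 and -0.47 to -0.44. That of RPL24 was also lost with the replicate block. RPL14A, with its few reads, had 4.70 and 3.83 scaled CPM in WT, 0.277 and 2.14 in deletion samples and 1.95 and 1.76 with rapamycin, so the samples of the deletion lay on both sides of those with rapamycin. RPL14B had 1348 and 1404 in WT, 984.5 and 948 in deletion samples and 409.8 and 367 with rapamycin, and its groups did not overlap.

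**Figure D4:**
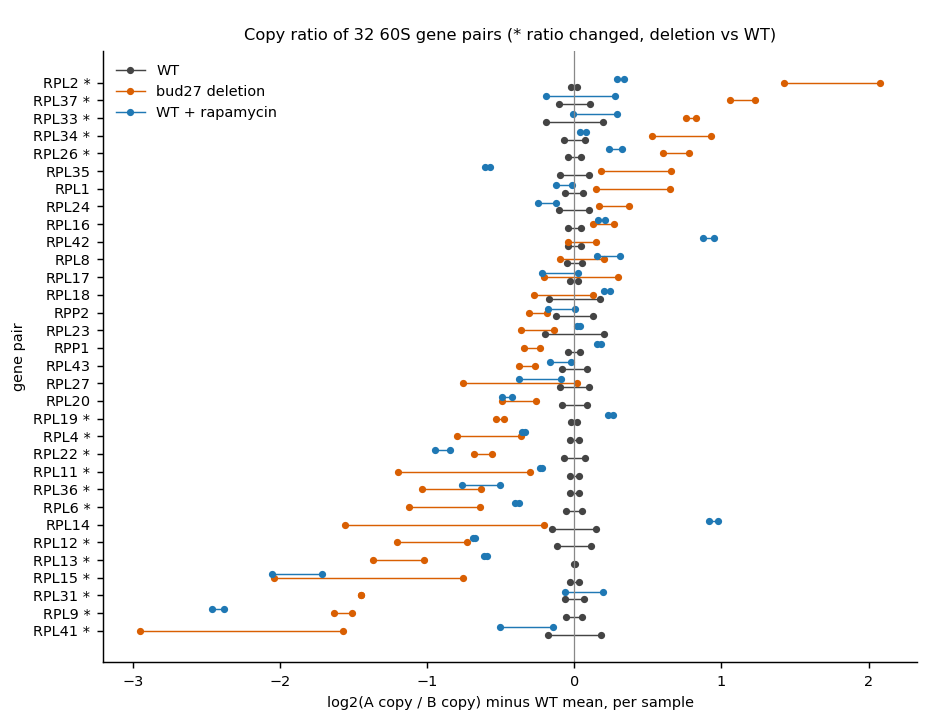
Log2 ratio of the A to the B copy in each sample minus the WT mean (x axis) for the 32 tested pairs (y axis), each line joining the 2 samples of a group. Asterisks mark the 17 pairs called in the deletion, from RPL41 at -2.26 to RPL2 at 1.75.

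Summing the copies of each pair gave 1 value for each of the 46 proteins, an analysis added after the data had been seen. After rapamycin all 46 summed transcripts were lower on the TMM scale, by 0.92 for RPL41 to 2.01 for RPL26, where 20.5% of the rows of that fit were lower, and on the deposited CPM 42 of the 46 were called lower, where 7.45% of rows were. In the deletion 23 were lower and 3 higher, against 23.9% and 23.4% of rows, and on the deposited CPM 13 were lower and 5 higher, against 13.2% and 42.8% of rows. The lowest were RPP1 at -1.80 (SE 0.25, adjusted p = 0.0011), RPP2 at -1.70 (SE 0.19, adjusted p = 0.0004), RPL41, given above, and RPL2 at -1.67 (SE 0.21, adjusted p = 0.00062). The higher ones were RPL35 at 0.91 (SE 0.15, adjusted p = 0.0023), RPL40 at 0.67 (SE 0.19, adjusted p = 0.023) and RPL7 at 0.56 (SE 0.14, adjusted p = 0.012). The sum of RPL40 is in effect RPL40A, as RPL40B had 0 to 6 reads a sample. That of RPL7 is mostly the row RPL7B shares with snR59, as RPL7A had 7 to 48 reads a sample. Among the proteins the SD of the summed changes was 0.28 after rapamycin and 0.60 in the deletion. In the deletion 35 of the 46 were higher than after rapamycin, against 26.1% of rows.

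**Figure D5:**
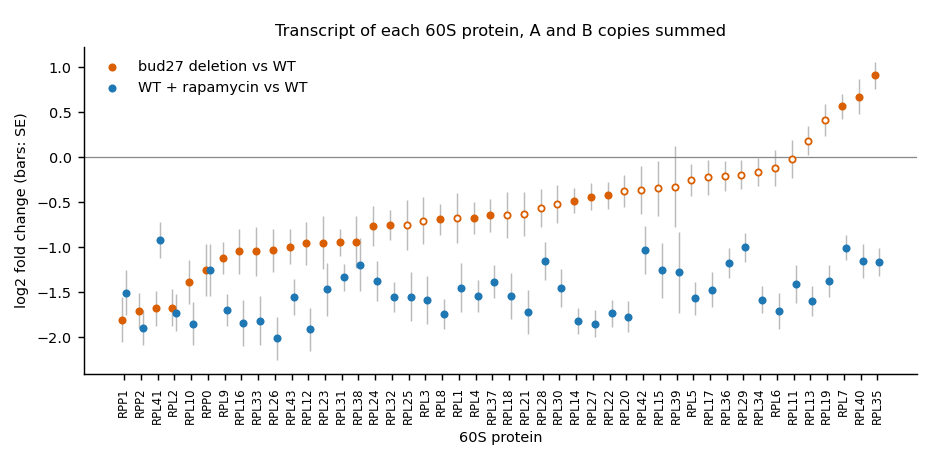
Log2 fold change of the summed transcript of each of the 46 60S proteins (x axis, ordered by the deletion value) in the deletion and after rapamycin against WT (y axis, bars are the SE). Filled points were called and open points were not; rapamycin values run from -2.01 to -0.92, deletion values from -1.80 to 0.91.

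The gap between samples of a group was widest in the deletion. Over the 80 members the median log2 gap between the 2 samples of a group was 0.29 in the deletion, 0.15 in WT and 0.065 after rapamycin. A gap above 0.5 was seen for 27 members in the deletion, 2 in WT (RPL21A and RPL39) and 5 after rapamycin (RPL21A, RPL25, RPL33A, RPL33B and RPL39). The depth of the deletion libraries was also the lowest, and its part in these gaps was not tested. The fit used 1 spread for the 3 groups. The SE and adjusted p of a comparison with the deletion may therefore be too small where its samples lay far apart.

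Upstream of the members, the letters ACCCNNACA, a core of the Rap1 site, were searched on both strands of the 500 bases before each start codon in the R64 genome. They were found for 36 of the 81 members (44.4%), against 328 of 6006 genes (5.46%). Sites before genes that rose or fell in the deletion are shown with 15 bases on each side, in the direction of the gene and with the matched letters in capitals; the RPL9A match is on the strand opposite to the gene.
RPL35A, chrIV:117357-117395, plus strand: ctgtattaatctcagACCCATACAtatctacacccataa
RPL19B, chrII:168022-168060, plus strand: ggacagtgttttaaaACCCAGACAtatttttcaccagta
RPL2B, chrIX:316359-316397, plus strand: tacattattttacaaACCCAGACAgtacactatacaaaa
RPP1B, chrIV:229617-229655, plus strand: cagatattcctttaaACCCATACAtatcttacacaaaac
RPL9A, chrVII:228616-228654, minus strand: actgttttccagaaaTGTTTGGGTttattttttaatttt
The letters stood before members that rose and before members that fell. The 35 tested members with a match had a median log2 fold change of -0.60 in the deletion and -1.50 after rapamycin, and the 45 without had -0.60 and -1.50. The letters TCANNNNNNACG, a core of the Abf1 site, matched 12 members (14.8%) and 22.7% of all genes.

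Members with and without an intron in the coding region also had like medians after rapamycin, -1.50 for 52 genes and -1.46 for 28. In the deletion the medians were -0.54 and -0.76. A copies had medians of -0.67 in the deletion and -1.52 after rapamycin and B copies -0.43 and -1.49, over 35 and 34 genes; the deletion median of the B copies is 0.01 on the deposited CPM.

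Of 11 regulators of ribosomal protein genes, listed by name, 10 were tested and ABF1, with 0 to 4 reads a sample, was not. In the deletion 5 were lower and none higher, where 25.5% and 21.7% of all rows were, and after rapamycin 1 was lower and 2 higher, against 21.5% and 24.4%. FHL1, the forkhead protein that recruits the coactivator Ifh1, fell by 1.45 in the deletion (SE 0.16, adjusted p = 0.00033). SFP1, a TOR-responsive activator, in a row shared with another feature, fell by 1.29 (SE 0.27, adjusted p = 0.0065), and TBF1 by 1.31. REB1 fell by 1.004 and the kinase gene SCH9 fell by 0.64, which are -0.57 (adjusted p = 0.0081) and -0.21 (adjusted p = 0.28) on the deposited CPM. After rapamycin CRF1, the corepressor that competes for Fhl1, was higher by 1.30 (SE 0.19, adjusted p = 0.0011) at about 5 scaled CPM, STB3, a repressor of ribosome biogenesis genes, was higher by 0.75 (SE 0.15, adjusted p = 0.0043), and HMO1 fell by 0.60 on the TMM scale but by 0.0031 on the deposited one. On the deposited CPM the rise of STB3 is 1.32. The transcripts of RAP1 and IFH1 were not called in either comparison, though IFH1, in a joined row, was called higher after rapamycin on the deposited CPM (0.84, adjusted p = 0.019). So were CRF1, STB3, SFP1 (0.93, adjusted p = 0.0075), REB1 (0.56, adjusted p = 0.0076) and SCH9 (0.49, adjusted p = 0.025). RAP1, FHL1, TBF1 and HMO1 were not called after rapamycin on that scale, where 54.7% of all rows were higher.

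Of 5 chaperones dedicated to single 60S proteins, 2 were lower in the deletion and 4 after rapamycin, against 25.5% and 21.5% of all rows. ACL4, which guards RPL4, fell by 0.72 (SE 0.13, adjusted p = 0.003) and 1.10 (SE 0.13, adjusted p = 0.00035), and BCP1, which guards RPL23, by 0.48 (SE 0.13, adjusted p = 0.015) and 0.79 (SE 0.13, adjusted p = 0.0015). SYO1, the carrier of RPL5 and RPL11, fell by 1.48 after rapamycin (SE 0.19, adjusted p = 0.00056) and RRB1, the chaperone of RPL3, by 0.96 (SE 0.17, adjusted p = 0.0027). On the deposited CPM the deletion values are -0.29 for ACL4 (adjusted p = 0.081) and -0.05 for BCP1 (adjusted p = 0.74), so neither was called. The rapamycin values there are -0.51 for ACL4 (adjusted p = 0.0086) and -0.90 for SYO1 (adjusted p = 0.0082), both called. Those of BCP1 (-0.19, adjusted p = 0.22) and RRB1 (-0.36, adjusted p = 0.14) were not called. SQT1, the last of the 5, was not called on the TMM scale in the deletion (-0.34, adjusted p = 0.056) or after rapamycin (-0.30, adjusted p = 0.084). On the deposited CPM it was called higher after rapamycin (0.30, adjusted p = 0.0485).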

How the data were processed

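The authors deposited CPM values for the 6 samples in a table of 7247 rows, 5475 of them genes. FastQC, HISAT2, DESeq, DESeq2 and build R64 are named without versions, per the submitters' processing notes; how reads were counted, by strand or with several matches, is not given in the sources used here. All values were whole multiples of 1 read within 0.01 reads (100% of values), so read counts were recovered from the deposited CPM. Gene names, coordinates and sequences came from RefSeq's R64 genome and annotation.

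Since the values are CPM, log2(scaled CPM + 1) was fitted by limma 3.58.1 under R 4.3.3 with a trend on abundance, the 3 groups in 1 model with 3 residual degrees of freedom, after scaling by TMM factors from edgeR 4.0.16 (WT 0.767 and 0.805, deletion 1.12 and 1.01, rapamycin 1.19 and 1.20). Rows passed edgeR's filter by group with a minimum count of 10, which left 5279. Adjusted p-values follow Benjamini and Hochberg, with a threshold of 0.05. Copy ratios were fitted in the same way over the 53 A/B-named pairs whose copies had separate rows and passed the filter, adjusted over these pairs; RPL7, RPL21 and RPL40 were not among them. The scripts were tested on simulated data. The members, role groups and lists were chosen with earlier results of these data known, so no list test is given. Named with values are the 6 members with the largest absolute change against WT in each comparison, all members higher than WT, the 4 largest called differences in each direction between the deletion and rapamycin, the RPP and single-copy genes, and pairs with a changed ratio, the 4 largest over the 3 comparisons (RPL9, RPL41, RPL15 and RPL14) with both copies and others by the share of A, 1 copy or the ratio change.

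Alternatives were the deposited CPM without TMM factors, DESeq2 size factors, pseudocounts of 0.5 and 5, no filter, edgeR and DESeq2 1.42.0 on the recovered reads (limma called 50 members in the deletion, of which edgeR lost 1 and DESeq2 none), leaving out joined rows, a replicate block, and leaving out each sample. Summing copies was added after seeing the data. Samples of a group were not duplicates: the chi-square per degree of freedom of their reads was 26.6 in WT, 17.2 in the deletion and 41.3 after rapamycin.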

Additional observations from a re-analysis of the deposited data

How the results depend on the processing

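Among single genes, no called member changed direction under any alternative. On the deposited CPM, members lower and higher in the deletion were 22 and 14 with a median of -0.16, where 13.3% and 42.5% of all rows were. After rapamycin 2 were higher with a median of -0.89, where 54.7% of all rows were higher. In the deletion 4 were lower than after rapamycin, where 1829 of 5279 rows were. Leaving out 1 sample gave 19 to 57 lower and 2 to 9 higher in the deletion, 0 to 1 higher after rapamycin, and 3 to 15 changed copy ratios there. Between the deletion and rapamycin it gave 1 to 5 lower, a median of 0.75 to 1.12 and 9 to 21 changed ratios. With copies summed the counts are out of 46 and not 80: 23 lower and 3 higher in the deletion, 46 and 0 after rapamycin, and 1 and 35 between them. On the deposited CPM as well they were 13 lower with a median of -0.24, 42 and 0 with a median of -0.94, and 1 and 30. Of the 5219 rows with copies summed, 1247 were lower and 1220 higher in the deletion, 1071 and 1293 after rapamycin, and 1515 and 1360 between them. On the deposited CPM these were 687 and 2233, 389 and 2884, and 1823 and 903. With the replicate block 39 members were lower in the deletion and 1 lower in the deletion than after rapamycin, where 1284 and 1496 of 5279 rows were. The correlations of same-numbered samples' deviations (-0.05, -0.10 and 0.04) give no pairing. Several members not called in the deletion changed sign there on the deposited CPM. Among single-copy genes these were RPL5 at 0.15, RPL29 at 0.21 and RPL39 at 0.079, none called there. Among paired genes they included RPL4B at 0.09, RPL11A at 0.17, RPL17A at 0.19, RPL20B at 0.26 and RPL27B at 0.14, none called there. RPL9B and RPL21B also changed sign and were called higher there (0.34 and 0.42, adjusted p = 0.045 and 0.044). RPL39 was at 0.019 without WT replicate 1 (-0.74 without WT replicate 2). The RPL15 copy ratio between the deletion and rapamycin was -0.16 without deletion replicate 2. Without deletion replicate 1 that ratio was 1.13 and called. The cause of these shifts was not tested. Depth limits the rare members: a count of 0 allows 3 reads, which is 0.934 CPM in the shallowest deletion library and 0.112 CPM in the deeper WT library, for counting error only.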
